A study of Mus musculus with 20 samples.

Results

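Genes that load and present peptides on MHC class I and class II molecules were followed in bone-marrow-derived macrophages (BMDMs) with and without Mcu, the gene for the pore-forming subunit of the mitochondrial calcium uniporter. The set held 10 genes, taken by symbol from the 21963 entries of the series' count table: the class II genes Ciita, Cd74, H2-Aa and H2-Ab1, and the class I genes H2-K1, H2-D1, B2m, Tap1, Tapbp and Nlrc5. All 10 had an entry, and 9 passed the filter on low counts that 11707 entries passed. Ciita did not, with 1 to 7 counts in each of the 20 libraries.

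RNA was sequenced from 5 groups of BMDMs, which the labels call biological replicates: wild-type (WT) untreated (n = 4), WT with zymosan for 3 h (n = 5), WT with zymosan and the calcium chelator BAPTA-AM at 10 uM (n = 4), Mcu-/- untreated (n = 4) and Mcu-/- with zymosan for 3 h (n = 3). Zymosan is a yeast cell wall particle that macrophages sense through Toll-like receptor 2 and Dectin-1. All cells were differentiated in L929-conditioned medium. The study describes its Mcu-/- BMDMs as derived from mice with a floxed Mcu gene and a Cx3cr1-driven Cre. It gives this origin with its calcium imaging and does not restate it for the RNA libraries. The methods name purchased C57BL/6 mice but do not say that the WT libraries came from them. The mice were young adults of both sexes per the methods, and the labels do not give the age or sex behind each library. The Mcu-/- zymosan libraries are named here by the numbers of their columns, 3, 4 and 5.

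MHC class I molecules show peptides from inside the cell to CD8+ T cells. The heavy chains H2-K1 and H2-D1 pair with beta-2 microglobulin (B2m), Tap1 is a subunit of the transporter that carries peptides into the endoplasmic reticulum, and Tapbp (tapasin) holds empty class I molecules at that transporter. Nlrc5 is the transactivator of class I genes. MHC class II molecules, here H2-Aa (alpha chain) and H2-Ab1 (beta chain), show peptides from endosomes to CD4+ T cells. Cd74 is their invariant chain, and Ciita is their master transactivator, which macrophages are known to switch on with interferon gamma.

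The proximal promoters are shown because all 6 class I members rose with zymosan in both genotypes and the class II chains stayed low, although both kinds of promoter are known to share the SXY module, in which the X2 element binds CREB/ATF factors, the Y element binds NF-Y, and Ciita or Nlrc5 is recruited to the assembled proteins. RefSeq windows of build GRCm38.p6, which is mm10, could be read for 6 of the 10 members, H2-Aa, H2-K1, H2-D1, B2m, Tap1 and Tapbp. From each, 250 bases before the annotated start were searched on both strands, and 140 bases, from position -145 to -6 before that start, are printed for H2-K1 (chr17:34000353-34000492, minus strand), B2m (chr2:122147542-122147681, plus strand) and H2-Aa (chr17:34287829-34287968, minus strand). Capitals mark TGACG (X2-type), ATTGG (Y box core), the NF-kB consensus and, in B2m, the interferon response element core (GAAANNGAAA).
H2-K1: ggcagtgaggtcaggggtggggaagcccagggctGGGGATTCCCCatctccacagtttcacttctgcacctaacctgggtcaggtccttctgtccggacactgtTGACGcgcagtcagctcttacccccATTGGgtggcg
B2m: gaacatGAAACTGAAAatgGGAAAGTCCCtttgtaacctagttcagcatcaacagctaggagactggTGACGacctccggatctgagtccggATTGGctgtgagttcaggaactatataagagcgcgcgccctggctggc
H2-Aa: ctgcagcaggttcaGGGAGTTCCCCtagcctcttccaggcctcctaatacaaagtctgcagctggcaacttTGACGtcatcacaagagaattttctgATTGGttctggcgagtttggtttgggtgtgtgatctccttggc

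In H2-K1, H2-D1 and B2m, TGACG began 25 bases before ATTGG, and in H2-Aa 26 bases before it. Of 32851 RefSeq promoter windows of the same length, 50 (0.152%) held the pair at 25 or 26 bases. This spacing was chosen after the letters had been seen. The Tap1 and Tapbp windows did not hold the pair at that spacing. The NF-kB consensus was found in H2-K1, H2-D1, B2m and H2-Aa and in 7.25% of all windows, and the interferon response element core in B2m and in 2.98%. For that core only the exact letters GAAANNGAAA were searched, so elements that depart from them are left unmarked. A window without a match, such as that of H2-K1, may therefore still hold an interferon response element. ATTGG on either strand was found in 33.8% of windows and TGACG in 17.8%. These are matches of letters, not binding sites.

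The 20 libraries summed to between 14.4 and 24 M counts. Levels are given as CPM, a gene's counts per mega-count of library size, with library sizes scaled by the trimmed mean of M values (TMM). On that scale 1 CPM stood for 15.7 to 28.1 counts. Mcu was lower in Mcu-/- cells, at 3.62 to 3.98 CPM against 6.10 to 7.23 CPM in the zymosan groups (log2 fold change -0.82 ± 0.14 (SE), edgeR adjusted p = 9.61e-05) and at 2.63 to 4.05 CPM against 6.49 to 8.36 CPM untreated (-1.14 ± 0.13, edgeR adjusted p = 0.000163). Mcu-/- untreated replicate 4 stood apart from replicates 1 to 3. The mean chi-square per gene between libraries was 169.7 to 175.1 in its 3 pairs and 1.52 to 5.29 in the 28 other pairs of replicates, and without it the biological coefficient of variation fell from 12.4% to 3.56%. Values without that library are therefore given beside those with it for the members and for the counts of the gene lists.

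Replicate 4 also shared part of the profile of the Mcu-/- zymosan libraries. In both, 4 of the 8 macrophage markers (Csf1r, Cd68, Mertk and Fcgr1) lay above the range of the other 16 libraries, and 3 (Adgre1, Lyz2 and Itgam) lay below it. Cd68 was 971 CPM in replicate 4, 1142 to 1175 CPM in Mcu-/- zymosan libraries, 251 to 259 CPM in Mcu-/- untreated replicates 1 to 3 and 209 to 321 CPM in WT libraries. Lyz2 was 2823, 3217 to 3280, 7824 to 8390 and 6867 to 8326 CPM, respectively. The summed macrophage markers came to 8556 CPM in replicate 4 and 10408 to 10767 CPM in Mcu-/- zymosan libraries, against 13357 to 16393 CPM in WT untreated and WT zymosan libraries and 14417 to 14777 CPM in Mcu-/- untreated replicates 1 to 3. Of the stromal markers, 4 of 6 lay above the other libraries (summed level 29.0 CPM in replicate 4, 44.7 to 53.7 CPM in Mcu-/- zymosan and 3.09 to 7.14 CPM in WT untreated and WT zymosan libraries), and neutrophil markers summed to 0.159 CPM in replicate 4, 0.452 to 0.589 CPM in Mcu-/- zymosan and 2.23 to 5.41 CPM in those WT libraries. The same pattern, above the other 16 libraries, was seen for 3 of the 10 members, H2-K1, H2-D1 and B2m, beside 11.4% of all genes tested above and 11.7% below. Irf1, a rapidly induced interferon-regulatory factor, did not share it and was 25 CPM in replicate 4, 34.6 to 37.0 CPM in replicates 1 to 3 and 1447 ± 11.5 CPM in Mcu-/- zymosan (SD, n = 3). Dendritic cell markers summed to 4.92 CPM in replicate 4, 13.2 to 13.8 CPM in Mcu-/- zymosan and 23.4 to 30.2 CPM in WT untreated and WT zymosan libraries, with Cd209a at 0. B cell markers summed to 13.1 to 13.6 CPM in Mcu-/- zymosan and 30.8 to 56.1 CPM in those WT libraries, and T cell markers to at most 3.65 CPM in any library, with Cd8a at 0. In bulk RNA, fewer cells of a type and less RNA per cell cannot be told apart.

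Class I genes made up the abundant end of the set. Per kilobase of exon, WT untreated macrophages had mean levels of 1737 CPM for B2m, 437 for H2-D1, 180.5 for H2-K1, 34.6 for Tapbp, 7.02 for Tap1 and 1.80 for Nlrc5. The class II members had 3.96 CPM per kilobase for Cd74, 0.654 for H2-Ab1, 0.423 for H2-Aa and 0.0193 for Ciita. The structural genes of class I were thus expressed far above those of class II in these resting macrophages, and H2-Aa and H2-Ab1 were read from 13 to 59 counts per library.

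Zymosan raised every class I member in WT macrophages, the peptide transporter, tapasin and Nlrc5 by several-fold and the heavy chains and B2m by 1.65- to 1.90-fold. H2-K1 (ENSMUSG00000061232, chr17:33996017-34000347, minus strand) was 519, 557, 541 and 504 CPM in the 4 untreated libraries and 1030, 987, 1012, 999 and 999 CPM in the 5 zymosan libraries, 1.90-fold higher (log2 0.92 ± 0.24 SE, edgeR adjusted p = 0.00234). The groups did not overlap, and the spread within each was small beside the distance between them. H2-D1 (ENSMUSG00000073411, chr17:35262730-35267499, plus strand) went from 1126 ± 57.4 CPM (SD, n = 4) to 1944 ± 22.9 CPM (n = 5), and B2m (ENSMUSG00000060802, chr2:122147686-122153083, plus strand) from 1494 ± 32.1 to 2464 ± 36.7 CPM. Their log2 fold changes were 0.79 ± 0.19 and 0.72 ± 0.15 (edgeR adjusted p = 0.000931 and 0.000381).

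The genes that feed and regulate class I rose further. Tap1 (ENSMUSG00000037321, chr17:34187553-34197225, plus strand) was 36.9, 38.9, 37.8 and 40.0 CPM untreated and 363, 337, 331, 359 and 337 CPM with zymosan, 8.99-fold higher (log2 3.17 ± 0.28, edgeR adjusted p = 6.03e-09). Tapbp (ENSMUSG00000024308, chr17:33915899-33929292, plus strand) rose 5.23-fold, from 126 ± 6.41 to 657 ± 18.5 CPM (log2 2.39 ± 0.21, edgeR adjusted p = 5.67e-09). Nlrc5 (ENSMUSG00000074151, chr8:94434356-94527272, plus strand) was 14.5, 15.8, 16.4 and 14.5 CPM untreated and 134, 126, 104, 171 and 128 CPM with zymosan, 8.66-fold higher (log2 3.11 ± 0.26, edgeR adjusted p = 2.43e-09). The zymosan libraries spread more widely for Nlrc5 than for the other class I members, with replicate 4 highest and replicate 3 lowest.

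Of the class II members, Cd74 rose from a low level and the class II chains stayed near the detection floor. Cd74 was 7.20, 6.36, 5.74 and 7.29 CPM untreated and 17.4, 16.5, 21.2, 18.6 and 20.1 CPM with zymosan (log2 1.50 ± 0.10, edgeR adjusted p = 1.33e-10). H2-Ab1 (ENSMUSG00000073421, chr17:34257689-34269419, plus strand) was 1.68 ± 0.309 and 2.41 ± 0.438 CPM, with overlapping libraries (log2 0.53 ± 0.22, edgeR adjusted p = 0.0401, and 0.00909 to 0.124 over 26 alternatives, of which 9 did not call it). H2-Aa (ENSMUSG00000036594, chr17:34282744-34287823, minus strand) was 1.61 ± 0.241 and 1.77 ± 0.454 CPM (log2 0.14 ± 0.31, edgeR adjusted p = 0.693). Ciita (ENSMUSG00000022504, chr16:10480059-10528418, plus strand) had 2 to 5 counts per library untreated and 2 to 7 with zymosan, and no change was detectable at this depth.

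In all, 8 of the 9 tested members were higher with zymosan in WT macrophages and 0 were lower, by edgeR as by DESeq2 and at an unadjusted p under 0.05. Among all genes tested, 32.4% rose and 36.8% fell (37.2% and 41.3% without Mcu-/- untreated replicate 4, with the same member counts). The median log2 fold change was 0.92 over the tested members and -0.04 over all genes tested. TMM scaled zymosan and untreated libraries apart: with library totals alone, every log2 change would be lower by 0.492. On that scale the ratios were 1.35 for H2-K1, 1.23 for H2-D1, 1.17 for B2m, 6.39 for Tap1, 3.72 for Tapbp, 6.16 for Nlrc5, 2.00 for Cd74 and 1.02 for H2-Ab1, and H2-Aa turned to 0.784.

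**Figure D1:**
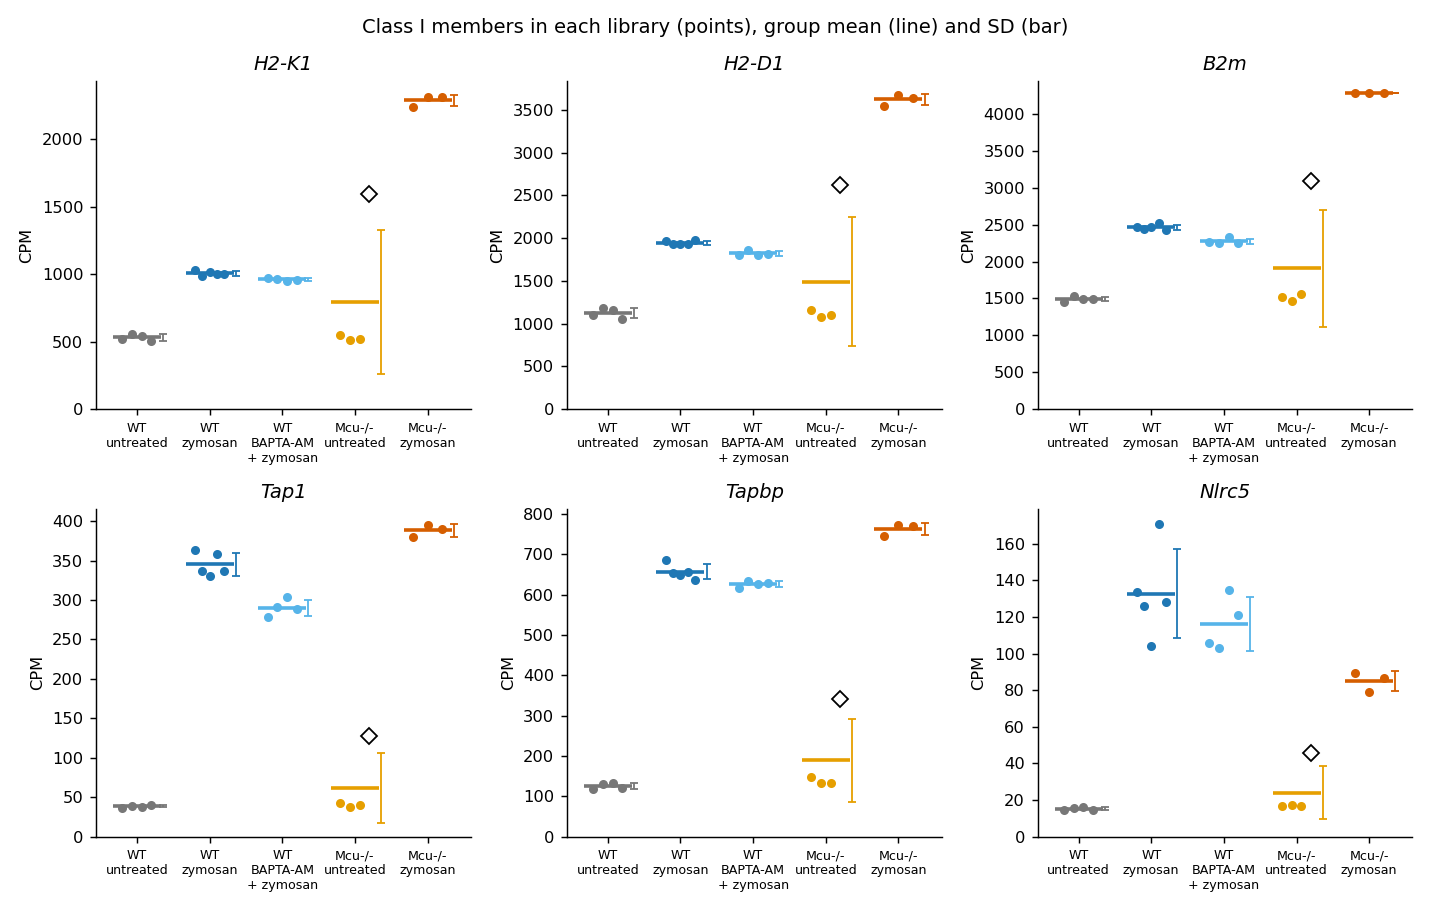
CPM (linear axis from 0) of the 6 class I members in each of the 20 libraries, by group, with the group mean as a line and the SD as a bar; the open diamond is Mcu-/- untreated replicate 4. H2-K1, H2-D1 and B2m are highest in Mcu-/- zymosan, and the diamond lies above the WT zymosan libraries for these 3 genes and below them for Tap1, Tapbp and Nlrc5.

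Mcu-/- macrophages also raised the class I genes with zymosan. H2-K1 was 547, 510.5, 517 and 1596 CPM in untreated replicates 1 to 4 and 2241, 2310 and 2312 CPM in zymosan libraries 3, 4 and 5. The last untreated value stands apart, so the fold depends on it: the log2 fold change was 1.53 ± 0.27 with all libraries (edgeR adjusted p = 5.51e-05) and 2.12 ± 0.03 without replicate 4 (1.52e-37). H2-D1 gave 1.28 ± 0.21 (edgeR adjusted p = 2.08e-05) and 1.70 ± 0.03 without it, and B2m 1.17 ± 0.17 (7.09e-06) and 1.51 ± 0.03. Tap1 gave 2.65 ± 0.29 (edgeR adjusted p = 1.48e-07) and 3.28 ± 0.04, Tapbp 2.01 ± 0.22 (1.73e-07) and 2.47 ± 0.04, and Nlrc5 1.83 ± 0.26 (5.33e-06) and 2.33 ± 0.11. Cd74, for which replicate 4 lay with the other untreated libraries, rose by 0.75 ± 0.11 (edgeR adjusted p = 9.31e-06) and 0.76 ± 0.11. Neither class II chain was called with all libraries (H2-Aa 0.26 ± 0.35 and H2-Ab1 0.42 ± 0.24, edgeR adjusted p = 0.522 and 0.127). Without replicate 4, H2-Ab1 was 0.56 ± 0.23 (edgeR adjusted p = 0.0252).

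Thus 7 of 9 members were higher and 0 lower, and 8 were higher without replicate 4. Among all genes tested, 34.3% rose and 39.4% fell, and 39.2% and 42.4% without replicate 4. Neither edgeR at an unadjusted p under 0.05 nor DESeq2 gave a lower member. Scaling by library totals would lower each log2 change here by 0.522, which left ratios of 2.04 for H2-K1, 1.71 for H2-D1, 1.58 for B2m, 4.43 for Tap1 and 1.17 for Cd74, and put H2-Aa at 0.842 and H2-Ab1 at 0.934.

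The comparison of both genotypes under zymosan split the set. H2-K1, H2-D1 and B2m were higher in Mcu-/- macrophages, Nlrc5 and Cd74 were lower, and Tap1 and Tapbp differed by 1.12- and 1.16-fold without being called. H2-K1 was 2241 to 2312 CPM in the 3 Mcu-/- libraries and 987 to 1030 CPM in the 5 WT libraries, 2.28-fold higher (log2 1.19 ± 0.25, edgeR adjusted p = 0.000587). H2-D1 was 3549, 3679 and 3646 CPM against 1966, 1927, 1927, 1930 and 1973 CPM (1.86-fold, log2 0.90 ± 0.20, edgeR adjusted p = 0.000677). B2m was 4282, 4288 and 4291 CPM against 2466, 2440, 2463, 2522 and 2427 CPM (1.74-fold, log2 0.80 ± 0.16, edgeR adjusted p = 0.000382). Every Mcu-/- library exceeded every WT library for these 3 genes. The share of all genes whose groups separated in this way is not given here.

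Tap1 and Tapbp moved in the same direction by a small amount. Tap1 was 380, 396 and 391 CPM in Mcu-/- and 345 ± 14.5 CPM in WT zymosan libraries (SD, n = 5), a log2 difference of 0.17 ± 0.27 (edgeR adjusted p = 0.598). Tapbp was 746, 773 and 771 CPM against 657 ± 18.5 CPM (log2 0.22 ± 0.21, edgeR adjusted p = 0.38). Their groups did not overlap, and without untreated replicate 4, which shares the estimate of spread, both were called (log2 0.17 ± 0.03 and 0.22 ± 0.03, edgeR adjusted p = 3.62e-05 and 2.78e-07).

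Nlrc5, the class I transactivator, went the other way. It was 89.4, 79.0 and 86.9 CPM in Mcu-/- zymosan libraries against 104 to 171 CPM in WT zymosan libraries (log2 -0.64 ± 0.25, edgeR adjusted p = 0.0333). The call was lost when WT zymosan replicate 4, the highest WT library, was left out (log2 -0.53, edgeR adjusted p = 0.0809) and when any of the 3 Mcu-/- zymosan libraries was (0.0633 to 0.101). Without untreated replicate 4 the log2 difference was -0.64 ± 0.09 (edgeR adjusted p = 2.3e-08). Cd74 was 12.8, 10.9 and 12.1 CPM in Mcu-/- and 16.5 to 21.2 CPM in WT zymosan libraries, without overlap (log2 -0.65 ± 0.11, edgeR adjusted p = 5.58e-05), and was called under all 26 alternatives. H2-Aa (-0.08 ± 0.34) and H2-Ab1 (0.01 ± 0.23) were not called (edgeR adjusted p = 0.859 and 0.967).

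Of the 9 tested members, 3 were higher and 2 lower in Mcu-/- macrophages, beside 31.8% higher and 30.3% lower among all genes tested, so the share of members called was close to that of genes at large. Without untreated replicate 4, 5 were higher and 2 lower (36.4% and 33.7% of all genes). The heavy chains share sequence with each other and with other class I genes. Of the 50-base windows of H2-K1 transcripts 9.63% occur in other genes, among them H2-D1 and H2-Q genes. Of those of H2-D1 12.8% do, among them in H2-K1 and H2-Q genes. How reads there were counted is not given in the sources used here. B2m shares none.

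The excess of H2-K1, H2-D1 and B2m in Mcu-/- over WT zymosan libraries came together with the marker levels described above. WT zymosan libraries, in which these genes also rose, did not show those marker levels. Levels above WT zymosan were also present without zymosan in Mcu-/- untreated replicate 4. That library held 1596 CPM of H2-K1, 2623 CPM of H2-D1 and 3092 CPM of B2m, which was 1.59, 1.35 and 1.26 times the WT zymosan mean, whereas untreated replicates 1 to 3 held 510.5 to 547, 1081 to 1159 and 1460 to 1561 CPM, close to the WT untreated libraries (504 to 557, 1059 to 1184 and 1456 to 1534 CPM). Against replicate 4, Mcu-/- zymosan libraries were 1.43-fold higher for H2-K1, 1.38-fold for H2-D1 and 1.39-fold for B2m. The corresponding WT zymosan folds were 1.90, 1.73 and 1.65. Tap1, Tapbp and Nlrc5 in replicate 4 were 128, 342 and 45.6 CPM, 3.20, 2.47 and 2.70 times the mean of replicates 1 to 3 but only 0.371, 0.520 and 0.344 times the WT zymosan mean. Cd74 in replicate 4 was 7.22 CPM, 1.02 times the mean of replicates 1 to 3. The part of the markers and of whatever set replicate 4 apart in the Mcu-/- zymosan levels was not tested, and a difference shared by these 4 libraries cannot be told apart from the genotype in the zymosan comparison. Without replicate 4, such a difference also cannot be told apart from the zymosan response of Mcu-/- macrophages.

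**Figure D2:**
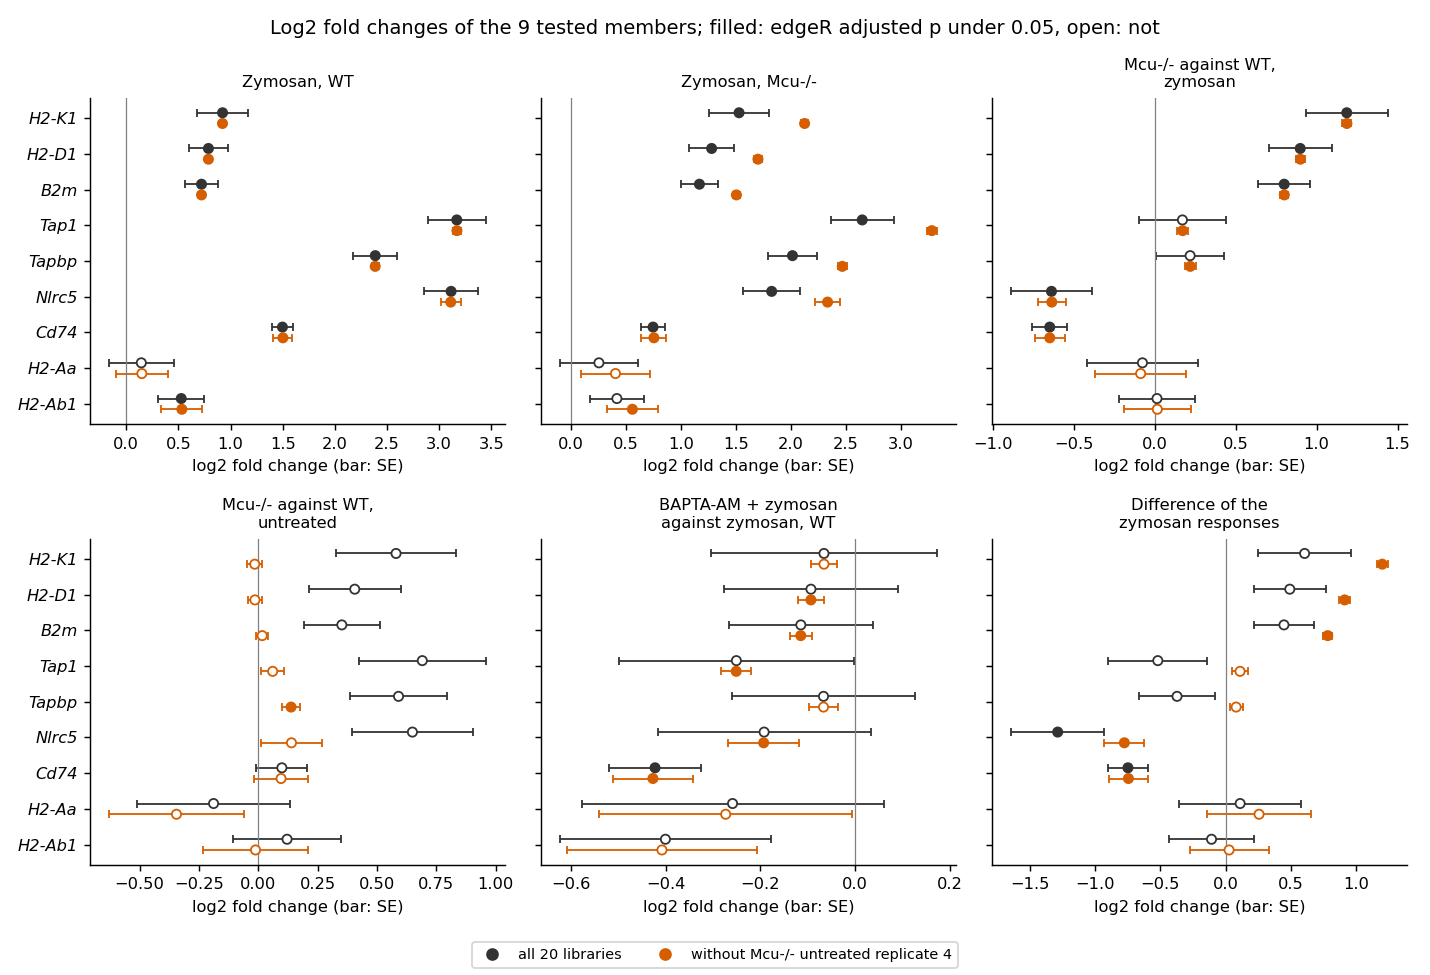
Log2 fold changes with SE of the 9 tested members in the 6 comparisons, with all 20 libraries (dark) and without Mcu-/- untreated replicate 4 (orange); filled points had an edgeR adjusted p under 0.05. Leaving the library out hardly moves the WT zymosan values, for example 0.92 for H2-K1 both ways, and takes the untreated H2-K1 difference from 0.58 to -0.015.

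Untreated macrophages of both genotypes did not differ detectably in these genes. No member was called in either direction with all libraries by edgeR, nor by DESeq2, while 6 were higher at an unadjusted p under 0.05. Among all genes tested, 0.128% were higher and 0.222% lower. The log2 differences of H2-K1, H2-D1, B2m, Tap1, Tapbp and Nlrc5 were 0.35 to 0.69 with replicate 4 (edgeR adjusted p = 0.225 to 0.334). Without that library H2-K1 was -0.015 ± 0.031, H2-D1 -0.014 ± 0.031, B2m 0.016 ± 0.026, Tap1 0.060 ± 0.048 and Nlrc5 0.14 ± 0.13, and none of these was called. Tapbp was 148, 132 and 134 CPM in Mcu-/- replicates 1 to 3 and 119 to 132 CPM in WT, with overlap, a log2 difference of 0.14 ± 0.04, and was the 1 member called (edgeR adjusted p = 0.0328). In that fit 1.53% of all genes were called higher and 1.83% lower. Cd74 differed by 0.10 ± 0.11 with and without the library (edgeR adjusted p = 0.644 and 0.783).

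Whether zymosan acted differently in the 2 genotypes was tested as an interaction term. It shares its libraries with the comparisons above and is no independent evidence of them. Nlrc5 and Cd74 rose less in Mcu-/- than in WT macrophages, by -1.29 ± 0.36 and -0.75 ± 0.15 on the log2 scale (edgeR adjusted p = 0.0101 and 0.00121). For Nlrc5 the value was -0.78 ± 0.15 without untreated replicate 4 and for Cd74 -0.75 ± 0.15, and both stayed called. H2-K1 (0.61 ± 0.36), H2-D1 (0.49 ± 0.28) and B2m (0.45 ± 0.23) were not called with all libraries (edgeR adjusted p = 0.197, 0.172 and 0.137). They were without replicate 4, at 1.20 ± 0.04, 0.91 ± 0.04 and 0.78 ± 0.04 (8.48e-25, 7.85e-21 and 7.42e-21). In that fit a difference shared by replicate 4 and the Mcu-/- zymosan libraries falls wholly into the Mcu-/- zymosan response. It cannot be told apart there from a different response to zymosan. Against replicate 4 alone, the Mcu-/- zymosan folds of these 3 genes were 1.43, 1.38 and 1.39, below the WT folds of 1.90, 1.73 and 1.65. Tap1 turned from -0.52 ± 0.38 to 0.11 ± 0.06 and Tapbp from -0.37 ± 0.29 to 0.08 ± 0.05 and neither was called in either fit. With all libraries 0 members were called higher (0 also at an unadjusted p under 0.05 and by DESeq2) and 2 lower, against 15.2% and 20% of all genes. Without replicate 4 the counts were 3 and 2, against 31% and 29.3%.

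Chelation of calcium with BAPTA-AM during zymosan lowered Cd74 in WT macrophages, and no other member was called with all libraries. Cd74 was 15.2, 14.5, 15.1 and 11.2 CPM with BAPTA-AM and 17.4, 16.5, 21.2, 18.6 and 20.1 CPM with zymosan alone, a log2 difference of -0.42 ± 0.10 (edgeR adjusted p = 0.00643, and 9.43e-05 to 0.0278 over 26 alternatives). The groups did not overlap. The BAPTA-AM levels still lay above the untreated level of 6.65 ± 0.739 CPM (SD, n = 4). Tap1 was 279, 291, 303 and 288 CPM against 331 to 363 CPM, also without overlap (log2 -0.25 ± 0.25, edgeR adjusted p = 0.607). H2-K1 was 951 to 970 CPM against 987 to 1030 CPM (log2 -0.07 ± 0.24), H2-D1 1822 ± 30.1 against 1944 ± 22.9 CPM (-0.09 ± 0.18) and B2m 2275 ± 36.3 against 2464 ± 36.7 CPM (-0.11 ± 0.15). Nlrc5 was 116 ± 14.6 against 133 ± 24.3 CPM (-0.19 ± 0.22) and Tapbp 627 ± 7.74 against 657 ± 18.5 CPM (-0.07 ± 0.19), with overlapping libraries for Nlrc5. H2-Ab1 was 1.84 ± 0.545 against 2.41 ± 0.438 CPM (-0.40 ± 0.22) and H2-Aa 1.50 ± 0.608 against 1.77 ± 0.454 CPM (-0.26 ± 0.32). Libraries overlapped for both chains, and neither was called (edgeR adjusted p = 0.282 and 0.698).

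With all libraries 1 of 9 members was lower and 0 higher with BAPTA-AM (0 higher also at an unadjusted p under 0.05 and by DESeq2), against 6.33% and 6.43% of all genes. Without Mcu-/- untreated replicate 4, which is not part of this comparison but widens its estimate of spread, 5 were lower: Cd74 (log2 -0.43 ± 0.08), Tap1 (-0.25 ± 0.03, edgeR adjusted p = 6.13e-08), B2m (-0.11 ± 0.02, 0.000135), H2-D1 (-0.09 ± 0.03, 0.00646) and Nlrc5 (-0.19 ± 0.08, 0.047). In that fit 16.5% of all genes were lower and 15.3% higher. At an unadjusted p under 0.05 by edgeR, 8 of the 9 members were lower in it and 0 higher. The share of all genes at that threshold is not given here. A fit of the groups compared alone also gave 5, with H2-K1 (-0.06, edgeR adjusted p = 0.0323) in place of Nlrc5. Other than Cd74, these members passed the threshold only where the spread was estimated without that library, with ratios of 0.84 for Tap1, 0.875 for Nlrc5, 0.923 for B2m, 0.937 for H2-D1 and 0.955 for H2-K1.

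**Figure D3:**
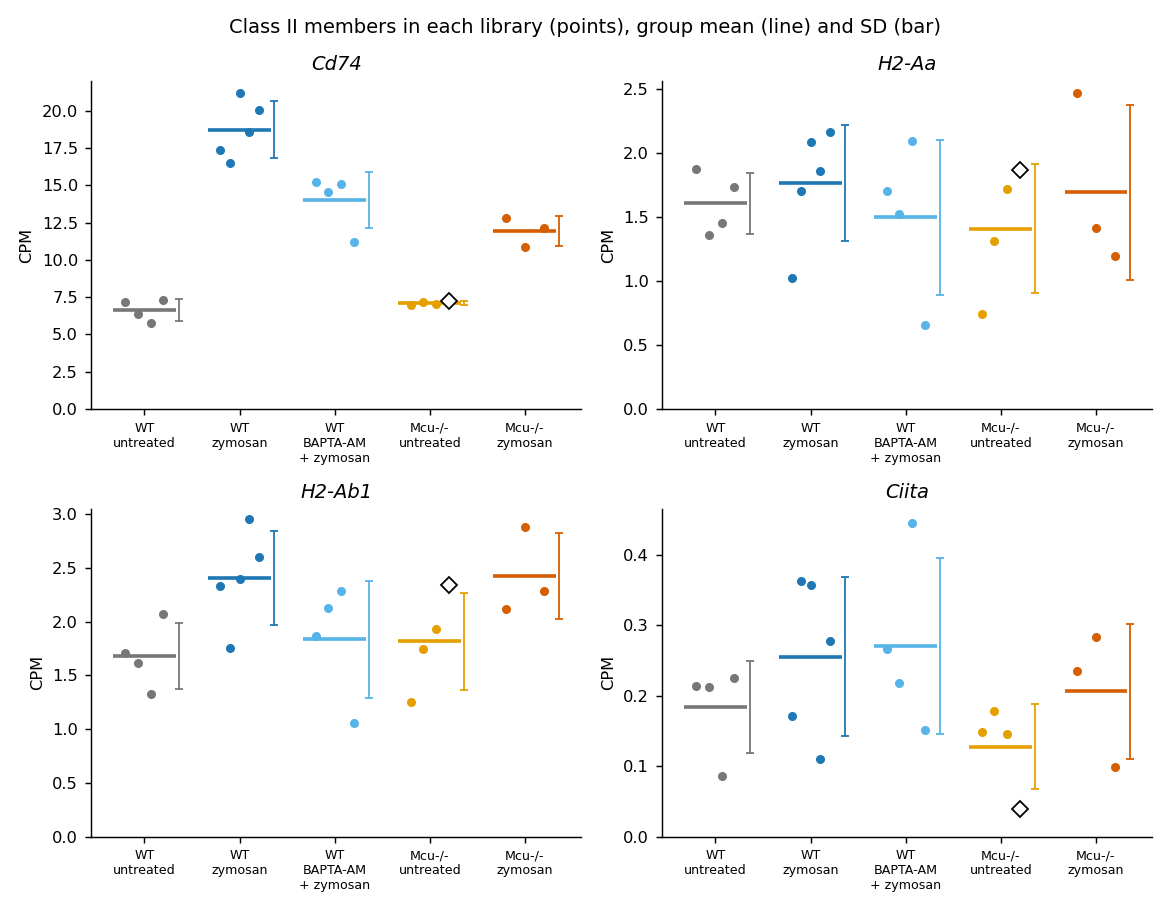
CPM (linear axes from 0, a different range in each panel) of the 4 class II members in each library, by group, with the group mean as a line and the SD as a bar; the open diamond is Mcu-/- untreated replicate 4. Cd74 orders the groups from untreated (means 6.65 and 7.11 CPM) through Mcu-/- zymosan (11.9) and BAPTA-AM with zymosan (14.0) to WT zymosan (18.7), while the libraries of the groups overlap for H2-Aa, H2-Ab1 and Ciita.

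By mean level the groups were ordered alike for the 5 class I members other than Nlrc5: WT untreated, Mcu-/- untreated, BAPTA-AM with zymosan, WT zymosan and Mcu-/- zymosan, with overlap between the untreated groups. For H2-K1, H2-D1 and B2m the range of Mcu-/- untreated, through replicate 4, also spanned the libraries of BAPTA-AM with zymosan and of WT zymosan. For Nlrc5 the order above the untreated groups was Mcu-/- zymosan, BAPTA-AM with zymosan and WT zymosan, and for Cd74 likewise, with overlap between the last 2 groups for Nlrc5 and between Mcu-/- zymosan and BAPTA-AM with zymosan for Cd74. All neighbouring groups overlapped for H2-Aa, H2-Ab1 and Ciita.

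Other class I heavy chains and relatives (12 of 17 listed genes tested, members not counted) rose in most cases. Of all genes, zymosan raised 32.4% and lowered 36.8% in WT macrophages (37.2% and 41.3% without Mcu-/- untreated replicate 4). With zymosan in WT macrophages 8 were higher and 1 lower (8 and 2 without Mcu-/- untreated replicate 4), among them H2-Q7, a nonclassical class I gene (1.55 to 13.9 CPM, log2 3.15 ± 0.73, edgeR adjusted p = 0.000828), H2-T22 (53.5 to 299 CPM, 2.48 ± 0.20) and H2-T23, the mouse Qa-1 gene (53.4 to 220 CPM, 2.04 ± 0.36), while Mr1, which presents vitamin B metabolites, fell by 1.36 on the log2 scale (12.5 to 4.85 CPM). Between genotypes under zymosan 8 were higher in Mcu-/- macrophages and 3 lower (8 and 4 without it), with a median log2 difference of 0.91 against 0.02 over all genes tested. Among all genes, 31.8% were higher and 30.3% lower (36.4% and 33.7% without replicate 4). H2-Q6 was 90.7 ± 1.07 CPM in Mcu-/- (SD, n = 3) and 4.79 ± 0.345 CPM in WT zymosan libraries (n = 5), log2 4.24 ± 0.75 (edgeR adjusted p = 9.96e-05). H2-Q7 was 84.9 ± 3.23 against 13.9 ± 0.866 CPM (2.61 ± 0.58) and H2-T24 181 ± 5.98 against 47.8 ± 2.37 CPM (1.92 ± 0.54). Replicate 4 again lay apart for these genes without zymosan: H2-Q6 was 30.2 CPM there and 0.665 to 1.06 CPM in replicates 1 to 3, and H2-T24 was 147 CPM against 12.8 to 14.5 CPM. Hfe, an iron regulator with a class I fold (36.8 against 58.0 CPM, log2 -0.66 ± 0.12), and Fcgrt, the neonatal Fc receptor chain (54.6 against 77.7 CPM, -0.51 ± 0.08), were lower in Mcu-/- macrophages and also low in replicate 4 (40.9 and 56.2 CPM). H2-Q6 and H2-Q7 are near-copies of each other and of other class I genes, so the split of reads between them is uncertain.

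Genes of peptide supply and loading (13 listed, 13 tested) rose with zymosan in both genotypes, beside 32.4% of all genes in WT and 34.3% in Mcu-/- macrophages. In WT 11 were called higher with all libraries and 13 without Mcu-/- untreated replicate 4, and in Mcu-/- 13 with and without it, and 0 were lower in either fit (0 also at an unadjusted p under 0.05 by edgeR with all libraries). In WT the largest rises were in Lap3, a cytosolic aminopeptidase (48.4 to 229 CPM, log2 2.24 ± 0.04, edgeR adjusted p = 7.18e-20), and in the immunoproteasome subunits Psmb10 (43.0 to 107 CPM, 1.31 ± 0.11) and Psmb9 (36.8 to 78.3 CPM, 1.09 ± 0.06). Between genotypes under zymosan 7 were higher and 3 lower in Mcu-/- cells (10 and 3 without replicate 4). The shares of all genes were 31.8% higher and 30.3% lower (36.4% and 33.7% without replicate 4). The tapasin relative Tapbpl (17.9 against 9.08 CPM, log2 0.98 ± 0.21), the chaperone Calr (2332 against 1420 CPM, 0.72 ± 0.14) and the trimming peptidase Erap1 (125 against 88.1 CPM, 0.51 ± 0.11) were higher. Lap3 (123 against 229 CPM, log2 -0.90 ± 0.04, edgeR adjusted p = 2.56e-12), the proteasome activator subunit Psme2 (239 against 319 CPM, -0.41 ± 0.07) and the aminopeptidase Npepps (106 against 122 CPM, -0.20 ± 0.04) were lower. Tapbpl, Calr and Erap1 in replicate 4 (12.9, 2063 and 120 CPM) also lay above the 16 other libraries.

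In the class II pathway list (17 genes, 14 tested, members not counted) the largest changes were in proteases. In WT macrophages zymosan raised 4, including the invariant chain protease Sppl2a (220.5 to 522 CPM, log2 1.24 ± 0.08, edgeR adjusted p = 3.08e-11), cathepsin L (Ctsl, 364 to 850.2 CPM, 1.22 ± 0.31) and the X-box factor subunit Rfx5 (6.82 to 14.7 CPM, 1.10 ± 0.10), and lowered 4, including Rfxap of the same complex (10.7 to 5.08 CPM, -1.07 ± 0.12). Without replicate 4 the counts were 6 and 5. Of all genes 32.4% rose and 36.8% fell, and 37.2% and 41.3% without replicate 4. Under zymosan 9 were higher and 0 lower in Mcu-/- cells (11 and 0 without replicate 4). The shares of all genes were 31.8% and 30.3% (36.4% and 33.7% without replicate 4). Ctsl was 3726 ± 90.6 against 850.2 ± 20.8 CPM (log2 2.13 ± 0.32, edgeR adjusted p = 2.26e-05), Ctsd 5418 ± 119 against 1974 ± 49.7 CPM (1.46 ± 0.22) and Ctsb 11637 ± 214 against 5007 ± 118 CPM (1.22 ± 0.25). These are lysosomal proteases of many functions. In replicate 4 they were 1669, 6150 and 10041 CPM, above all WT libraries. The median log2 difference of the list was 0.51.

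**Figure D4:**
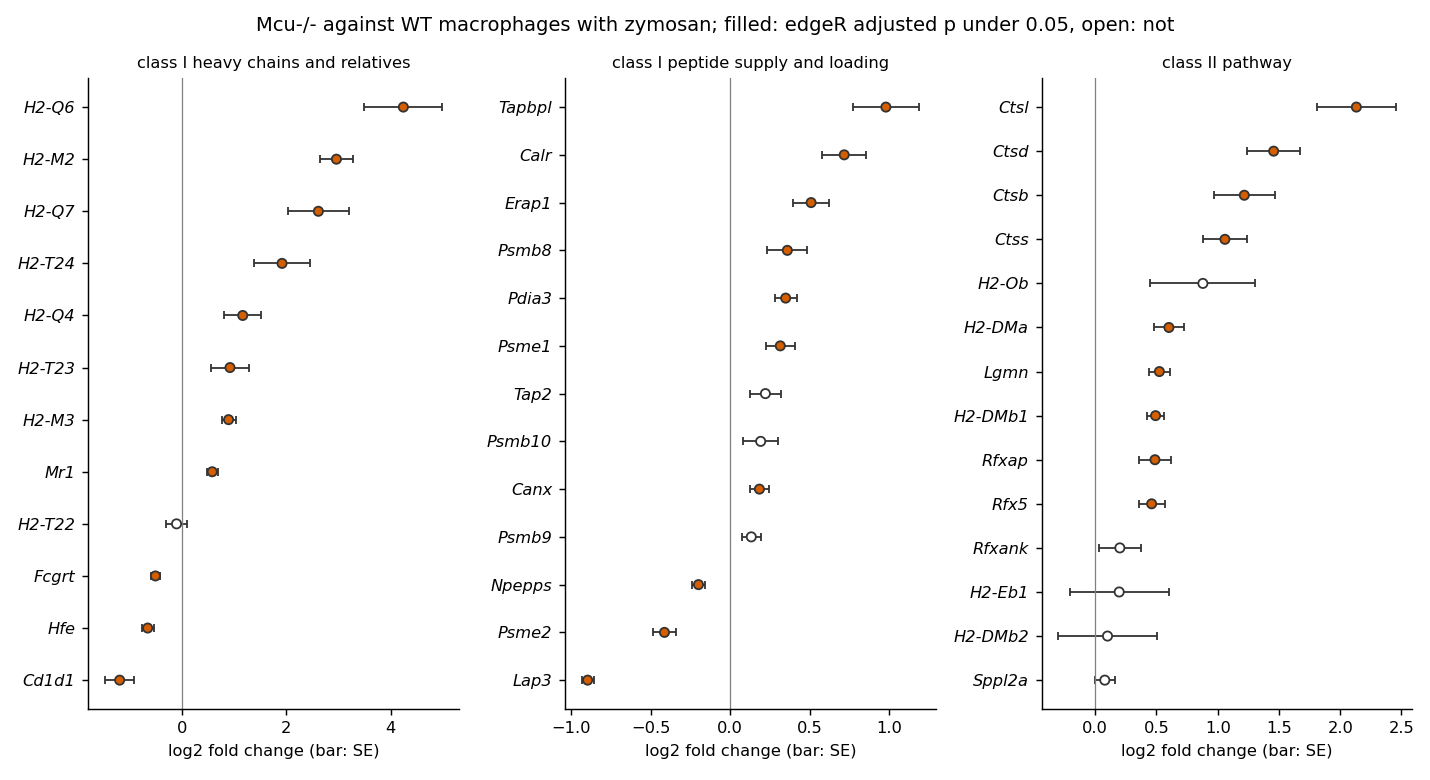
Log2 fold changes with SE (Mcu-/- against WT, both with zymosan, all 20 libraries) of the tested genes of 3 lists; filled points had an edgeR adjusted p under 0.05, and each panel has its own axis. H2-Q6 (4.24), Tapbpl (0.98) and Ctsl (2.13) head their lists, and Lap3 (-0.90) is the lowest gene of peptide supply and loading.

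Of the listed upstream regulators (18 genes, 17 tested) 11 were higher and 4 lower with zymosan in WT macrophages (11 and 5 without replicate 4). Among all genes, 32.4% rose and 36.8% fell (37.2% and 41.3% without replicate 4). Socs1, a feedback inhibitor of cytokine signalling, went from 1.54 to 266 CPM and Irf1 from 31.7 to 1334 CPM (log2 7.43 ± 0.09 and 5.39 ± 0.09, edgeR adjusted p = 1.85e-21 and 1.57e-19), and Ifnb1, interferon beta, from 1 to 2 counts per library to 103 ± 9.12 CPM. The interferon gamma receptor chains Ifngr1 (137 to 63.8 CPM) and Ifngr2 (156 to 122 CPM) fell, as did the NF-Y subunit Nfya (136 to 80.6 CPM). Between genotypes under zymosan 5 were higher and 5 lower (7 and 5 without replicate 4). Among all genes, 31.8% were higher and 30.3% lower (36.4% and 33.7% without replicate 4). With all libraries the share of regulators called was thus close to that of genes at large. Ifnb1 (376 ± 13.9 against 103 ± 9.12 CPM, log2 1.87 ± 0.11, edgeR adjusted p = 3.05e-10) and Ifngr1 (151 ± 0.511 against 63.8 ± 2.44 CPM, 1.24 ± 0.06) were higher in Mcu-/- macrophages. Irf8 (565 against 759 CPM, -0.43 ± 0.11), Irf2 (107 against 143 CPM, -0.42 ± 0.06) and Spi1 (PU.1, 539.9 against 697 CPM, -0.37 ± 0.05) were lower. Ifnb1 in Mcu-/- untreated replicate 4 was 0.397 CPM.

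Calcium chelation changed 6 of the 17 regulators (2 higher and 4 lower), 1 of 14 class II pathway genes, 1 of 13 genes of peptide supply and loading and 0 of 12 class I relatives (0 also at an unadjusted p under 0.05). Among all genes, 6.43% were higher and 6.33% lower. Without Mcu-/- untreated replicate 4, which is outside this comparison, 2 regulators were higher and 7 lower, 7 class II pathway genes were lower, 2 class I relatives were higher and 2 lower, and 1 gene of peptide supply and loading was lower, beside 15.3% of all genes higher and 16.5% lower. The cathepsins were among the class II pathway genes lower in that fit: Ctsl went from 850.2 to 663 CPM (log2 -0.36 ± 0.03, edgeR adjusted p = 2.46e-14), Ctsd from 1974 to 1839 CPM (-0.10 ± 0.02, 0.000801) and Ctsb from 5007 to 4720 CPM (-0.09 ± 0.02, 0.00475). BAPTA-AM lowered Ifnb1 from 103 ± 9.12 to 45.6 ± 8.62 CPM (log2 -1.17 ± 0.11), Jak2 from 375 to 278 CPM and Irf8 from 759 to 585 CPM, and raised Ifngr1 from 63.8 to 95.9 CPM (0.59 ± 0.06) and Prdm1, a repressor of Ciita, from 33.8 to 48.9 CPM (0.53 ± 0.10). Lap3 (229 to 194 CPM, -0.24 ± 0.03) and the class II editor H2-DMb1 (16.0 to 13.4 CPM, -0.25 ± 0.07) fell. In untreated macrophages none of the 4 lists had a gene called between genotypes by edgeR, while at an unadjusted p under 0.05 there were 5 higher class II pathway genes, 7 higher and 1 lower class I relatives, 6 higher genes of peptide supply and loading and 2 higher and 4 lower regulators. Without replicate 4, 2 class II pathway genes and 2 class I relatives were called higher, and 2 regulators higher and 3 lower. Of all genes, 0.128% were higher and 0.222% lower with all libraries, and 1.53% and 1.83% without replicate 4.

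The genes whose log2 CPM followed each member most closely over the 20 libraries, among 8343 candidates, differed between the groups of members. For B2m and H2-D1 the interferon-induced gene Ifitm3 was among the first 3 (Pearson r = 0.997 and 0.996), and for H2-K1 it followed Akr1a1 and Lgals3bp (0.997 and 0.996). Tap1 ran with Ifi203, Ddx58 and Slfn5 (0.999 each), and Tapbp with Slfn5, Rtp4 and Ddx58 (0.999, 0.999 and 0.998), all known as interferon-stimulated genes. Nlrc5 ran with Ripk1 and Parp10 (0.994 each) and Cd74 with Sik3, Itpkc and Lag3 (0.972, 0.972 and 0.970). H2-Aa and H2-Ab1 had no close partner (highest r = 0.490 and 0.763). These values describe libraries that share groups and treatments, and carry no test.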

How the data were processed

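The authors trimmed paired-end reads with cutadapt, aligned them to mm10 with STAR, counted them per gene with HTSeq and deposited the whole-number counts for 20 libraries. Versions, the annotation release and the strand setting are not given in the sources used here. The members and lists were chosen with earlier results of these data known. Here counts were filtered with filterByExpr, scaled by TMM and fitted with edgeR 4.0.16 (limma 3.58.1, R 4.3.3) by the quasi-likelihood test with 1 coefficient per group over all 20 libraries, and Benjamini-Hochberg adjustment over the 11707 genes tested. A gene was called at an adjusted p under 0.05. The 25 repeated symbols kept separate entries. Columns of Mcu-/- zymosan libraries carry numbers 3 to 5 where their titles carry 1 to 3, so they were assigned to the group only. Named genes were Mcu, the members, up to 3 called list genes per direction and comparison with the largest changes (mean of 5 CPM or more in 1 of both groups), and the 3 genes most correlated with each member. A few genes that this rule names are not reported here. Marker genes and Irf1 in replicate 4 were named after their values were seen. Exon lengths and coordinates came from GENCODE M21. Alternatives were DESeq2 1.42.0, its size factors, other filters, a replicate block, the groups compared alone and leaving out each library. The fits were tried on simulated counts of 11373 genes, of which 200 were changed by 1 on the log2 scale. By edgeR with TMM, 200 were recovered with 11 false calls, and by DESeq2 200 with 8. Every simulated gene had the same spread and no library stood apart, so the influence of replicate 4 on the calls was not tested there. Counting error limits the low class II members. With no culture or animal named per library, p-values measure the spread between these libraries. Libraries that share a number did not deviate together (correlations of deviations -0.0877 to 0.0728 in 17 pairs), so the numbers were not used to pair them. Figures were drawn with matplotlib 3.10.9.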

Additional observations from a re-analysis of the deposited data

Results flagged for a closer look

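Mcu-/- untreated replicate 4 lay far from replicates 1 to 3 for 6 members: H2-K1 at 1596 CPM, H2-D1 at 2623 CPM, B2m at 3092 CPM, Tap1 at 128.2 CPM, Tapbp at 341.6 CPM and Nlrc5 at 45.63 CPM. In 3 other cases a library lay far from the rest of its group by Dixon's criterion, with small differences: Ciita in WT untreated replicate 3 (0.0856 CPM, from 2 counts), H2-D1 in BAPTA-AM with zymosan replicate 2 (1867 CPM) and B2m in BAPTA-AM with zymosan replicate 3 (2329 CPM). In all, 9 of 40 member and group pairs were picked out, and 6 of the 9 were the same library. Chance gives about 1 in 20 among independent groups. These pairs share their libraries, so their count cannot be measured against that rate. The zymosan response differed between genotypes, by the interaction term, for Cd74 (-0.75 on the log2 scale, Mcu-/- minus WT) and Nlrc5 (-1.29).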

How the results depend on the processing

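Of 26 alternatives per fold, DESeq2, its size factors, other filters and the replicate block by column number left the member counts within 1.5 times of the reported ones. With the replicate block, 7 members were higher with zymosan in WT (8 without it), since H2-Ab1 was no longer called (0.50, edgeR adjusted p = 0.0796), and the H2-Ab1 difference between genotypes under zymosan turned to -0.056. The block gave 9 genes higher between untreated genotypes where 15 were reported, and changed no other member call. The groups compared alone gave 5 members higher in Mcu-/- macrophages under zymosan (3 reported) and 5 lower with BAPTA-AM (1 reported). Leaving out 1 library in turn gave 3 to 5 members higher and 1 to 2 lower between genotypes under zymosan, 0 to 1 higher untreated, 1 to 5 lower with BAPTA-AM and 0 to 3 higher for the response difference. The upper ends (and all BAPTA-AM and interaction changes) came from leaving out Mcu-/- untreated replicate 4, and the 1 lower from leaving out WT zymosan replicate 4 or any Mcu-/- zymosan library. Among single members, leaving out 1 library turned the directions below. The ranges of log2 differences are given over all 26 alternatives. Untreated, they were -0.015 to 0.74 for H2-K1, -0.014 to 0.53 for H2-D1 and -0.012 to 0.26 for H2-Ab1, and for the response difference -0.70 to 0.11 for Tap1, -0.51 to 0.081 for Tapbp and -0.25 to 0.027 for H2-Ab1, all turned by replicate 4. The other turns were in the low class II chains, none called: H2-Aa ran from -0.11 to 0.46 in the Mcu-/- zymosan response, -0.45 to 0.13 between genotypes under zymosan, -0.34 to 0.023 untreated and -0.26 to 0.32 for the response difference, and H2-Ab1 from -0.13 to 0.098 under zymosan. The causes of these changes were not tested. Over all genes, calls between untreated genotypes were 15 higher and 26 lower, and 57 and 55 by DESeq2, 2 and 3 in the groups compared alone, 13 lower where every library had to hold 10 counts, and 5 to 178 higher and 14 to 213 lower with 1 library left out. With BAPTA-AM 753 and 741 genes became 1741 and 1788 in the groups compared alone and 1783 and 1929 without replicate 4, and 1779 genes higher for the response difference became 3622 without it. Depth limits H2-Aa, H2-Ab1 and Ciita.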
